A study of Homo sapiens with 6 samples.

Results

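The Polycomb complex genes followed here were EZH1, EZH2, EED, SUZ12, JARID2, RING1, RNF2, BMI1, CBX2 and CBX8. They were picked by gene symbol as subunits of these complexes, with earlier results of these data known, and made up 10 of the 56303 genes in the deposited count table. The libraries were made from SW480, an established colorectal cancer cell line. In the shCtrl group (genotype WT in the labels, 3 libraries) the cells carried a control short hairpin RNA, and in the shMORC2 group (MORC2 knockdown, 3 libraries) a hairpin against MORC2, which encodes a chromatin-bound ATPase that acts in gene silencing. Per the methods, hairpins were delivered by lentivirus and clonal lines that carried them stably were kept under puromycin. All 6 libraries therefore came from transduced, selected cells, and a difference between clones cannot be told apart from the knockdown. The replicates are described as independent experiments, with no word on whether the cultures or clones were separate, so the p-values below measure the spread between these libraries.

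Polycomb proteins keep developmental genes silent by marking histones. Polycomb repressive complex 2 (PRC2) methylates lysine 27 of histone H3: EZH1 or EZH2 is the catalytic subunit, EED and SUZ12 are core subunits without which the enzyme is inactive, and JARID2 is an accessory subunit that helps to bring the complex to chromatin. Polycomb repressive complex 1 (PRC1) ubiquitinates histone H2A: RING1 or RNF2 is the ubiquitin ligase, each pairs with 1 of the PCGF proteins, such as BMI1, and the CBX proteins CBX2 and CBX8 read methylated H3 in the canonical form of the complex. In colorectal cancer cells EZH2 and BMI1 are known for their link to proliferation and self-renewal.

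With group only in the model, the counts showed 2 changes among these genes. BMI1 fell to 72.5% of its control level and EED rose to 119.2%, and the other 8 did not pass the test. Of the 10 genes, 2 were called, against 8301 of the 21005 genes tested in the table (39.5%). A gene was called when its Benjamini-Hochberg adjusted p in edgeR's quasi-likelihood test, over all 21005 genes, was under 0.05. One of the 2 was called higher and 1 lower, where the table had 19.9% called higher and 19.6% called lower. The median log2 fold change of the 10 genes was 0.06 and the median size was 0.11, beside -0.0056 and 0.31 over all genes tested. Among the 14335 genes that averaged 100 counts or more, a level that all 10 exceeded, the median size was 0.26 and 47.1% were called. The count of 2 members was the same without TMM (38.7% of all genes called), with a filter at a mean of 10 counts (39.7%), with no filter beyond 1 count (23.6%), with DESeq2 (31.5%), with limma on log2 RPKM at a pseudocount of 0.1 (42.0%) or 1 (42.3%), and without shCtrl replicate 1 (36.7%) or shMORC2 replicate 1 (39.2%). The count was 3 with the replicate number as a block (49.0% of all genes), which added EZH1. It was 1, BMI1, without shCtrl replicate 2 (29.8%) or 3 (31.0%) or shMORC2 replicate 2 (30.3%) or 3 (29.0%). At an adjusted p under 0.01 BMI1 alone was called (25.2% of all genes), and at an unadjusted p under 0.05 BMI1 and EED both were (48.1%). Neither change reached a log2 size of 0.5, as 22.4% of all genes did with a call.

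**Figure D1:**
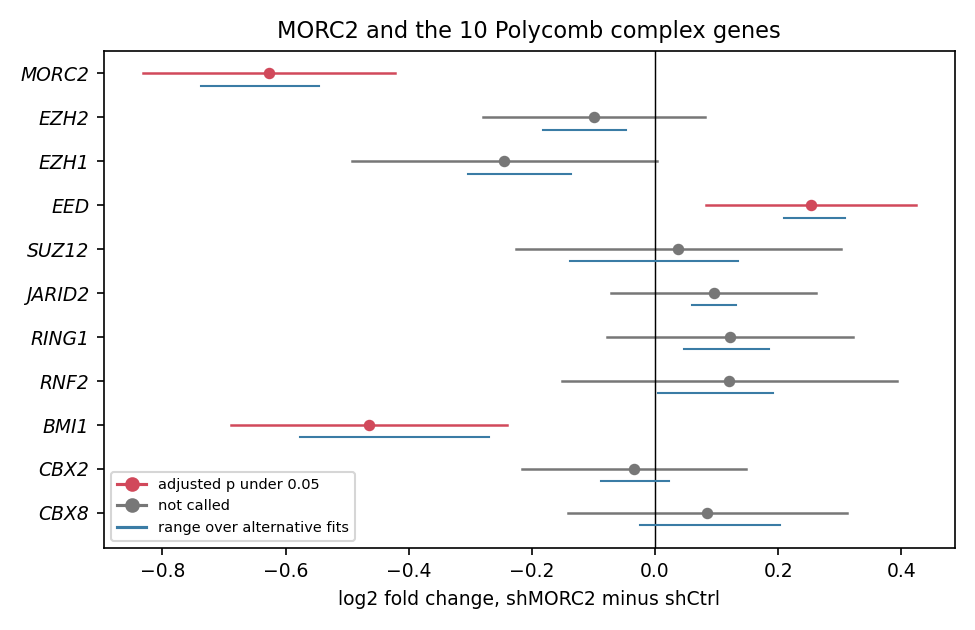
Log2 fold change (shMORC2 minus shCtrl) of MORC2 and the 10 Polycomb complex genes, with the 95% interval of the edgeR fit (upper line, red where the adjusted p was under 0.05) and the range over the alternative fits (lower blue line). BMI1 lies at -0.46 and EED at 0.25, and the intervals of the other 8 Polycomb complex genes include 0.

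MORC2 itself (chromosome 22, 30925130 to 30968298, minus strand, GRCh38) stood at 46.1, 46.4 and 48.8 CPM (counts scaled to a library of fixed size, with the trimmed mean of M values, TMM) in shCtrl replicates 1, 2 and 3. In shMORC2 it stood at 35.03, 29.3 and 27.2 CPM. The groups did not overlap, with a log2 difference of -0.63 (SE 0.10, 95% interval -0.83 to -0.42, edgeR adjusted p 0.000216). Of its 6258 exonic bases 1616 are shared with MORC2-AS1 on the opposite strand, and the sources do not say whether reads were counted by strand. Total counts were 42092664 to 43434425 per library. Epithelial keratins were abundant, and the 10 colon epithelium markers summed to 20140 to 26180 CPM in shCtrl and 19180 to 26070 in shMORC2, with 2 of 9 tested called higher (KRT20 and CDX2) and 5 of 9 called with the replicate number as a block; LGALS4, a marker of differentiated colonocytes, had at most 18 counts in a library. Leukocyte markers summed to 38.05 to 47.5 CPM in shCtrl and 59.2 to 110.4 in shMORC2, of which CD68 was called higher, while PTPRC, CD3E and CD3D had at most 6 counts in a library and MS4A1 had 0. Fibroblast markers summed to 20.01 to 20.9 and 22.7 to 25.0 CPM, with 0 of 3 tested called by edgeR (1 at an unadjusted p under 0.05 and 1 with the block) and DCN at 2 counts at most. Endothelial markers summed to 15.7 to 19.6 and 20.6 to 22.2 CPM, with VWF called higher of 2 tested and KDR at 2 counts at most. The part of these markers in the results was not tested.

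EZH2 was the most abundant of the 10 genes and EZH1 the least, on the RPKM scale (counts over exon length and library total). The exon length is that of the deposited gene model, so the order and shares between genes depend on that model. In shCtrl the mean RPKM was 29.99 for EZH2 and 12.9 for RING1, and the ranges of both were apart from all other members. CBX2 (7.28), SUZ12 (6.53), JARID2 (6.27), CBX8 (6.05), EED (5.55) and BMI1 (5.26) followed in an order in which each range overlapped that of the next gene. RNF2 (2.12) and EZH1 (1.84) came last and overlapped each other. In shMORC2 the first 5 places were the same, with EZH2 at 27.87 and RING1 at 13.92 RPKM. CBX2, SUZ12, JARID2, EED and CBX8 lay between 6.39 and 7.07 RPKM there, each overlapping the next, and BMI1 (3.80), RNF2 (2.29) and EZH1 (1.54) then stood apart from one another.

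**Figure D2:**
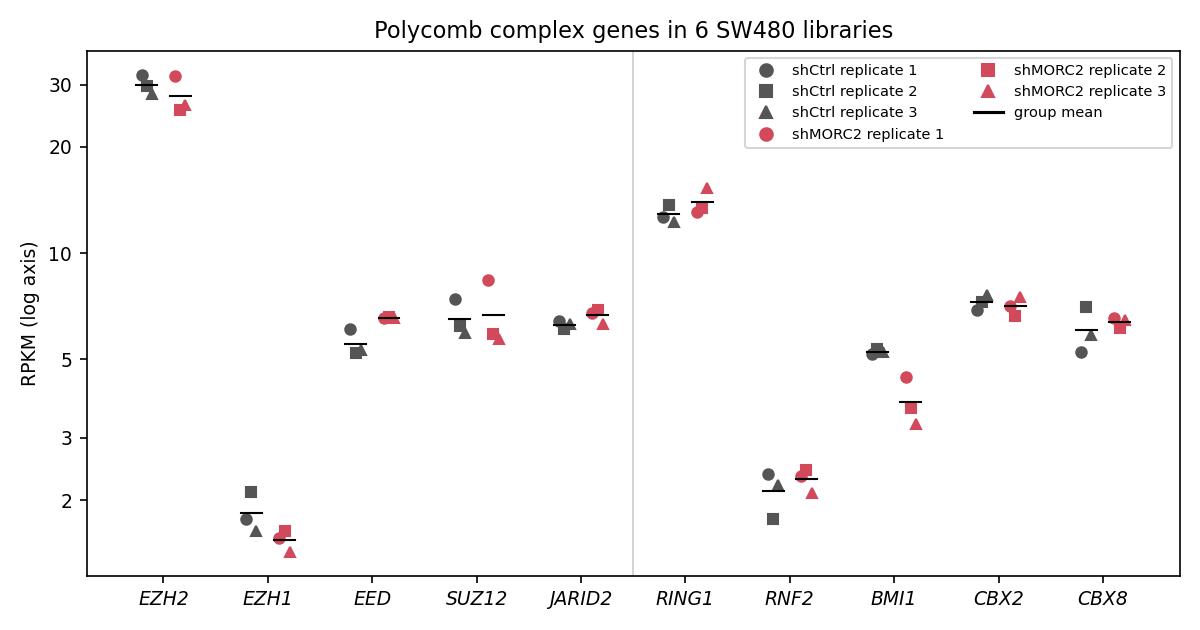
RPKM (log axis) of the 10 Polycomb complex genes in the 3 shCtrl (grey) and 3 shMORC2 (red) libraries, with a symbol for each replicate number and a bar at each group mean; PRC2 genes are on the left and PRC1 genes on the right. EZH2 lies between 25.45 and 32.02 RPKM in all libraries, and only for BMI1 and EED do the grey and red symbols not overlap.

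The catalytic subunits of PRC2 did not pass the test. EZH2 (chromosome 7, 148807383 to 148884321, minus strand) stood at 141.2, 134.1 and 130.4 CPM in shCtrl replicates 1, 2 and 3 and at 140.9, 117.4 and 120.6 CPM in shMORC2. The groups overlapped, with shMORC2 replicate 1 among the shCtrl values. The log2 fold change was -0.10 (95% interval -0.28 to 0.08, edgeR adjusted p 0.374). EZH1 (chromosome 17, 42700275 to 42745049, minus strand), the paralogue that is typical of cells that do not divide, stood at 12.1, 14.7 and 11.7 CPM in shCtrl and at 10.7, 11.7 and 10.1 CPM in shMORC2. The lowest shCtrl library and the highest shMORC2 library were level. The log2 fold change of EZH1 was -0.24 (95% interval -0.49 to 0.0029, adjusted p 0.108). With the replicate number as a block it was also -0.24 and was called lower (adjusted p 0.0369), in a fit that called 49.0% of all genes, and 1 of 13 alternative fits, the blocked one, called it.

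EZH2 made up 94.2% ± 0.742 (SD, n = 3) of the summed RPKM of EZH1 and EZH2 in shCtrl and 94.7% ± 0.697 (SD, n = 3) in shMORC2. The ratio of EZH2 to EZH1 was 18.1, 14.1 and 17.3 in shCtrl and 20.4, 15.5 and 18.5 in shMORC2, so that the groups overlapped. The log2 ratio differed by 0.14 (two-sided exact permutation p 0.4). With 3 libraries against 3 the smallest p this test can give is 0.1. Within each pair of same-numbered libraries the ratio was higher in shMORC2 (exact sign-flip p 0.25, the smallest that 3 pairs allow).

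EED rose. This core subunit, which binds the methyl mark that PRC2 makes, lies at chromosome 11, 86244544 to 86278813, plus strand. It stood at 41.8, 36.5 and 38.1 CPM in shCtrl and at 44.95, 47.2 and 46.6 CPM in shMORC2. Every shMORC2 library was above every shCtrl library, as was so in either direction for 50.2% of all genes tested. The means were 38.8 ± 2.71 and 46.3 ± 1.18 CPM (SD, n = 3 each), and the log2 difference was 0.25 (SE 0.08, 95% interval 0.08 to 0.42, edgeR adjusted p 0.0217). EED was called in 9 of 13 alternative fits. The call was lost without shCtrl replicate 2 (adjusted p 0.0908) or 3 (0.0757) and without shMORC2 replicate 2 (0.0778) or 3 (0.0613), with log2 fold changes from 0.21 to 0.25, in fits that called 29.8%, 31.0%, 30.3% and 29.0% of all genes in that order.

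SUZ12, the core subunit that holds the complex together, lies at chromosome 17, 31937018 to 32001045, plus strand. It stood at 47.4, 40.5 and 39.9 CPM in shCtrl and at 53.9, 39.3 and 38.0 CPM in shMORC2. Replicate 1 was the highest in both groups, and the remaining shMORC2 libraries lay just under the shCtrl range. The log2 fold change was 0.04 (95% interval -0.23 to 0.30, adjusted p 0.830). It had the opposite sign without shMORC2 replicate 1 (-0.14) and without shCtrl replicate 3 (-0.0034). JARID2 (chromosome 6, 15246296 to 15522040, plus strand) stood at 37.6, 36.5 and 38.8 CPM in shCtrl and at 39.99, 42.2 and 38.4 CPM in shMORC2. Its groups overlapped through shMORC2 replicate 3, and the log2 fold change was 0.10 (95% interval -0.07 to 0.26, adjusted p 0.351).

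Of the 2 ubiquitin ligases of PRC1, RING1 was the more abundant per length, and neither passed the test. RING1 (chromosome 6, 33208495 to 33212722, plus strand) stood at 22.4, 24.8 and 22.9 CPM in shCtrl and at 23.2, 24.9 and 28.1 CPM in shMORC2, where replicates 1 and 2 were within or close to the shCtrl range. The log2 fold change was 0.12 (95% interval -0.08 to 0.32, adjusted p 0.322). RNF2 (chromosome 1, 185045364 to 185102608, plus strand), also called RING1B, stood at 9.45, 7.19 and 9.17 CPM in shCtrl and at 9.33, 10.1 and 8.64 CPM in shMORC2. The groups overlapped, with a log2 fold change of 0.12 (95% interval -0.15 to 0.39, adjusted p 0.474). RING1 made up 85.8% of the summed RPKM of the pair in both groups (SD 2.37 in shCtrl and 1.84 in shMORC2, n = 3 each). The log2 ratio of RNF2 to RING1 differed by 0.01 (two-sided exact permutation p 0.8), and its sign turned when shCtrl replicate 2 or shMORC2 replicate 1 or 2 was left out.

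BMI1 fell. Also known as PCGF4, it is the PCGF subunit of canonical PRC1 and a repressor of the CDKN2A locus. It lies at chromosome 10, 22321211 to 22331484, plus strand. It stood at 21.6, 22.8 and 23.05 CPM in shCtrl and at 18.8, 15.9 and 14.2 CPM in shMORC2. The groups were apart, as for 50.2% of all genes tested, and the shMORC2 libraries were spread more widely than the shCtrl ones. The means were 22.5 ± 0.763 and 16.3 ± 2.28 CPM (SD, n = 3 each), and the log2 difference was -0.46 (SE 0.10, 95% interval -0.69 to -0.24, edgeR adjusted p 0.00336). All 14 alternative fits called it, with log2 fold changes from -0.58 to -0.27.

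The lowest of these in size came from the gene model. BMI1 shares 1000 of its 4283 exonic bases with COMMD3-BMI1, a read-through gene on the same strand. The 1904 exonic bases of COMMD3-BMI1 all belong to BMI1 (1000) or COMMD3 (904). Reads from the shared exons could therefore be split between the entries or counted in both. COMMD3-BMI1 stood at 25.9, 25.5 and 27.8 CPM in shCtrl and at 26.9, 24.4 and 21.5 CPM in shMORC2, with a log2 fold change of -0.12 (edgeR adjusted p 0.339). COMMD3, the upstream gene, had a log2 fold change of 0.18 (adjusted p 0.224). With BMI1 and COMMD3-BMI1 summed as 1 gene, a setting added after the data were seen, the log2 fold change was -0.27 and the call was kept (edgeR adjusted p 0.0330). That sum also takes in reads from COMMD3 exons and may hold shared reads in both entries, so it is not a level of BMI1 alone.

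CBX2 and CBX8 did not pass the test. They are chromobox readers whose genes are neighbours on chromosome 17, on opposite strands and 4148 bases apart. CBX2 (79778132 to 79787983, plus strand) stood at 38.4, 41.3 and 44.4 CPM in shCtrl and at 39.4, 38.4 and 43.3 CPM in shMORC2, which is within the same range. The log2 fold change was -0.03 (95% interval -0.22 to 0.15, adjusted p 0.776), with a sign that turned without shCtrl replicate 3 (0.023) or shMORC2 replicate 2 (0.0012). CBX8 (79792132 to 79801683, minus strand) stood at 21.3, 29.2 and 25.02 CPM in shCtrl and at 26.8, 26.1 and 27.2 CPM in shMORC2. The shMORC2 values lay close together inside the wider shCtrl range. The log2 fold change was 0.08 (95% interval -0.14 to 0.31, adjusted p 0.553), and it was -0.024 without shCtrl replicate 1. The ratio of CBX2 to CBX8 did not pass the test either (log2 difference -0.13, two-sided exact permutation p 0.4).

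The PCGF proteins define the forms of PRC1, since BMI1 and PCGF2 build canonical PRC1 and PCGF1, PCGF3, PCGF5 and PCGF6 build variant forms. BMI1 made up 19.1%, 19.8% and 19.3% of the summed PCGF RPKM in shCtrl and 15.7%, 14.5% and 12.6% in shMORC2. PCGF2, its closest paralogue, made up 24.4% ± 0.129 in shCtrl and 38.1% ± 1.05 in shMORC2 (SD, n = 3 each). The groups of both shares were apart, as the CPM groups were for 50.2% of all genes tested. The summed RPKM of the 6 genes was 27.1 ± 0.109 and 26.5 ± 1.80 and overlapped. The ratio of BMI1 to PCGF2 was 0.784, 0.805 and 0.794 in shCtrl and 0.420, 0.386 and 0.320 in shMORC2. The log2 ratio differed by -1.09 (two-sided exact permutation p 0.1, the smallest this design allows, and 0.25, again the smallest, when replicates of the same number were paired). These shares and ratios used the BMI1 entry alone. COMMD3-BMI1, with which it shares 1000 of 4283 exonic bases, was left out, and a ratio with both entries summed was not tested.

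Of the other PCGF genes, PCGF2 rose from 23.2 ± 0.597 to 35.6 ± 1.62 CPM (SD, n = 3 each, log2 fold change 0.62, edgeR adjusted p 5.83e-05). It shares 1148 of its 3511 exonic bases with CISD3 on the opposite strand. PCGF1 (log2 fold change -0.58, adjusted p 0.00242) and PCGF6 (-0.65, adjusted p 0.000232) fell. PCGF3 had a log2 fold change of 0.21 (adjusted p 0.0596, 0.0134 with the block and 0.0453 without shMORC2 replicate 2) and PCGF5 of -0.03 (adjusted p 0.859). In shares of RPKM, PCGF1 went from 16.6% to 11.3%, PCGF6 from 18.3% to 11.9% and PCGF3 from 18.1% to 21.3%, each without overlap between the groups. A share also moves when another gene of the sum changes, and the CPM groups of 50.2% of all genes tested did not overlap.

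**Figure D3:**
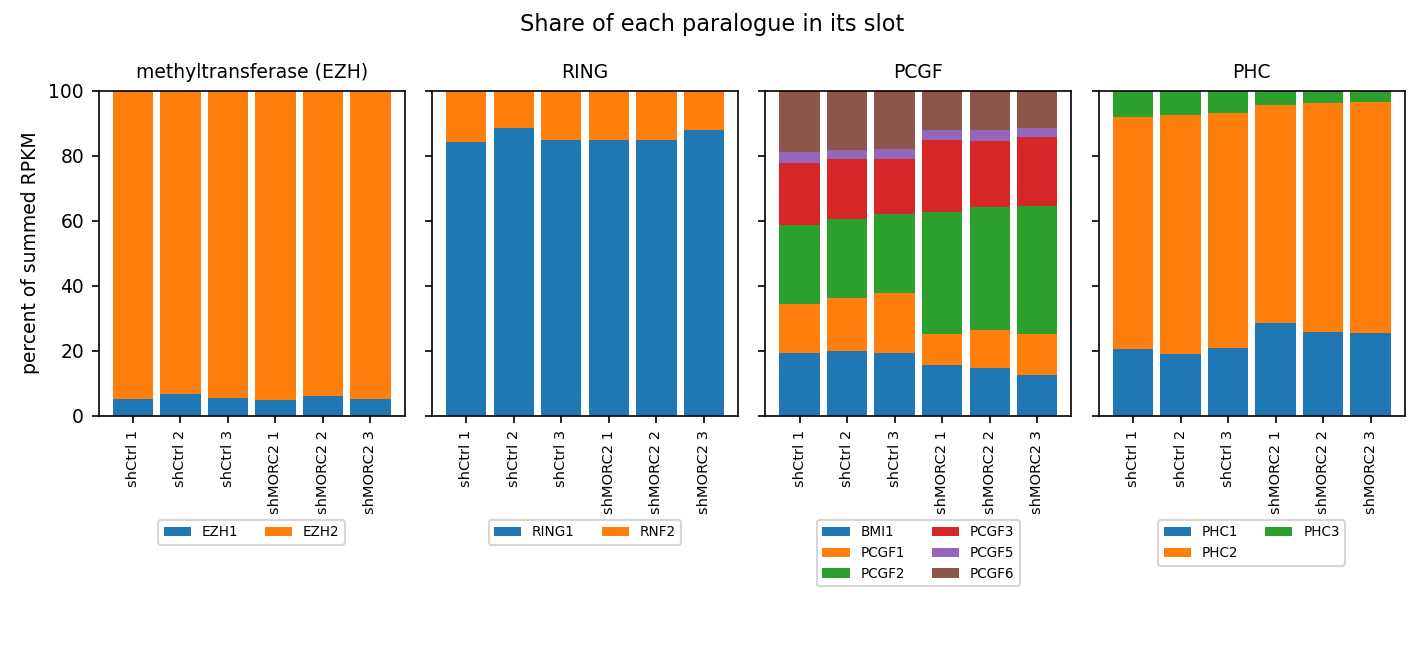
Share of each paralogue in the summed RPKM of its place in the complexes, in percent, for each of the 6 libraries; each stacked bar sums to 100%. BMI1 shrinks from 19.1% to 19.8% of the PCGF sum in shCtrl to 12.6% to 15.7% in shMORC2 while PCGF2 widens, and EZH2 and RING1 hold most of their bars in every library.

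CBX6 (log2 fold change -0.15, adjusted p 0.117, and 0.0418 with the block) and CBX7 (-0.11, adjusted p 0.552), which also encode chromobox readers of canonical PRC1, did not pass the edgeR test.

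The promoters of the members were examined for the motif of E2F factors, cell cycle regulators known to act on EZH2. RefSeq promoters (250 bases before to 50 after a start, GRCh38.p14) were found for 8 of the 10 genes, with 11 starts in all. CBX2 and CBX8 had no entry. The letters searched, on both strands, were TTTCCCGC, TTTGGCGC, TTTCGCGC and TTTGCCGC. They were present in the promoters of 3 of the 8 genes (3 of 11 starts), against 3.31% of all 35116 promoters in the table. All 11 promoters were CpG-rich (GC over 50% and an observed-to-expected CpG ratio over 0.6), as were 46.8% of all promoters. The motif share among CpG-rich promoters alone was not counted, so the comparison is not matched for base composition. The 3 stretches are shown 5′ to 3′ on the strand of the gene, since they carry the match, which is in capitals with 20 bases on either side: EZH2 (chr7:148884263-148884310, minus strand, match at base 2 after the start), SUZ12 (chr17:31936798-31936845, plus strand, match at base -189) and EZH1 (chr17:42745128-42745175, minus strand, match at base -115 and reading on the opposite strand).
EZH2: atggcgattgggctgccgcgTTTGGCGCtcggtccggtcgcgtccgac
SUZ12: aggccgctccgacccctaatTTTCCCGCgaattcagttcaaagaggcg
EZH1: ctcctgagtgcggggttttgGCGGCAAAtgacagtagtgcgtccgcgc
None of these 3 genes passed the expression test. Of 22 proliferation genes 7 were called (31.8%, against 39.5% of all genes), 4 higher and 3 lower, with a median log2 fold change of 0.09 and summed levels of 2923 to 3553 CPM in shCtrl and 3168 to 3383 in shMORC2. With the replicate block, which called 49.0% of all genes, 14 were called, 8 higher and 6 lower.

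The deposited splicing table listed events in 2 of the 10 members, SUZ12 and JARID2, beside 1181 of the 21005 genes tested for expression (5.62%) and 6 of 54 partner genes. Its 2 groups of 3 libraries are unnamed, so no knockdown direction can be given, and no test was run. In SUZ12 the event was the skipping of exon 4 of 16, a coding exon of 69 bases (chr17:31947617-31947685). The inclusion level, the share of exon-including transcripts, was 1.0, 0.932 and 1.0 in the first group, from 21, 22 and 34 reads. In the second group it was 0.829, 0.890 and 0.859, from 42, 40 and 31 reads. The levels did not overlap, and how often that held over all listed events was not counted. The events come from the authors' own comparison of the groups. Skipping rested on 0, 1 and 0 reads in the first group and 5, 3 and 3 in the second. In JARID2 the event set exon 3 of 18 (142 bases, chr6:15410224-15410365) against exon 4 (170 bases, chr6:15452006-15452175), both coding. The level was 0.226, 0.181 and 0.419 in the first group and 0.549, 0.453 and 0.306 in the second, from 35 to 62 reads, and the groups overlapped. The table does not say which of the 2 exons the level counts. The exons are shown on the plus strand, in capitals, with 20 intron bases on either side, because they are the stretches whose use the levels describe. Each begins after AG and ends before GT, the usual splice site letters.
SUZ12 exon 4: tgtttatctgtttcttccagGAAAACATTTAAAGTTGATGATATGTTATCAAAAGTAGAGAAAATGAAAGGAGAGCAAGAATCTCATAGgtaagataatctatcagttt
JARID2 exon 3: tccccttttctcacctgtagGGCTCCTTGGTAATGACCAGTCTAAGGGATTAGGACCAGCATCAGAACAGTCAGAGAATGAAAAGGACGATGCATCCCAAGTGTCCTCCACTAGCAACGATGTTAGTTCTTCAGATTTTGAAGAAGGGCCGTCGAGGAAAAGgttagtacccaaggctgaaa
JARID2 exon 4: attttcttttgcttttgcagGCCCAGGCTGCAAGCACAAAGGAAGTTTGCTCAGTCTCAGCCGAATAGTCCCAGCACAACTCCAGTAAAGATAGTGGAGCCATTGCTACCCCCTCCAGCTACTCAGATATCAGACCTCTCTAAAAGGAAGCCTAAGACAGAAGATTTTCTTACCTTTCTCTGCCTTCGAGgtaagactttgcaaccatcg

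Genes for proteins that work with or against these complexes changed in both directions. Of 54 partner genes in 4 lists 52 were tested and 31 called (59.6%), 13 higher and 18 lower, with a median log2 fold change of -0.12 and a median size of 0.32. Over all genes 39.5% were called, and 47.1% of those that averaged 100 counts or more. The differences between these shares were not tested. With a log2 fold change of at least 0.5 required as well, 11 of the 52 were called, close to the 22.4% of all genes. Whether a lower level came from less RNA per cell or from fewer cells of a kind cannot be told apart in such bulk samples. Among 9 tested PRC2 partners 2 rose and 2 fell (44.4% called). RBBP4, the histone chaperone subunit of PRC2, rose from 101.1 ± 8.97 to 142.3 ± 11.96 CPM (SD, n = 3 each, log2 fold change 0.49, edgeR adjusted p 0.000713). It shares 1706 of its 9470 exonic bases with SYNC on the opposite strand. PHF19, a Polycomb-like accessory subunit, also rose (0.36, adjusted p 0.00565). AEBP2, the zinc finger subunit that shares a form of PRC2 with JARID2, fell from 51.3 ± 4.48 to 32.2 ± 3.08 CPM (log2 fold change -0.67, adjusted p 0.000108). LCORL shares 1631 of its 14858 exonic bases with NCAPG on the opposite strand. It had a log2 fold change of -0.33 (adjusted p 0.0450) and was called in 6 of 13 alternative fits. Its call was lost without shCtrl replicate 1 (adjusted p 0.115) or 3 (0.111), without shMORC2 replicate 2 (0.106) or 3 (0.211), without TMM (0.0543) and under limma on RPKM.

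Among 9 canonical PRC1 partners 2 rose and 3 fell (55.6% called, beside 39.5% of all genes). PHC3, a Polyhomeotic subunit through which PRC1 complexes join into larger bodies, fell from 30.8 ± 1.98 to 14.8 ± 1.43 CPM (SD, n = 3 each, log2 fold change -1.05, edgeR adjusted p 3.70e-06). It shares 1781 of its 16919 exonic bases with RP11-379K17.12 on the opposite strand. PHC1 rose (0.27, adjusted p 0.0237), a call lost without shCtrl replicate 1 (adjusted p 0.0967) or 2 (0.0539) or shMORC2 replicate 2 (0.0873). It shares 1105 of 6090 exonic bases with M6PR on the opposite strand. PHC2 had a log2 fold change of -0.19 (adjusted p 0.143, 0.0114 with the block and 0.0231 without shCtrl replicate 1). PHC2 was the main Polyhomeotic gene, with 72.4% of the summed RPKM in shCtrl and 69.5% in shMORC2, while PHC3 went from 7.55% to 3.97% and PHC1 from 20.1% to 26.5%. SCMH1, another canonical partner, fell (-0.46, adjusted p 0.00308), and PCGF2 rose, as given above.

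**Figure D4:**
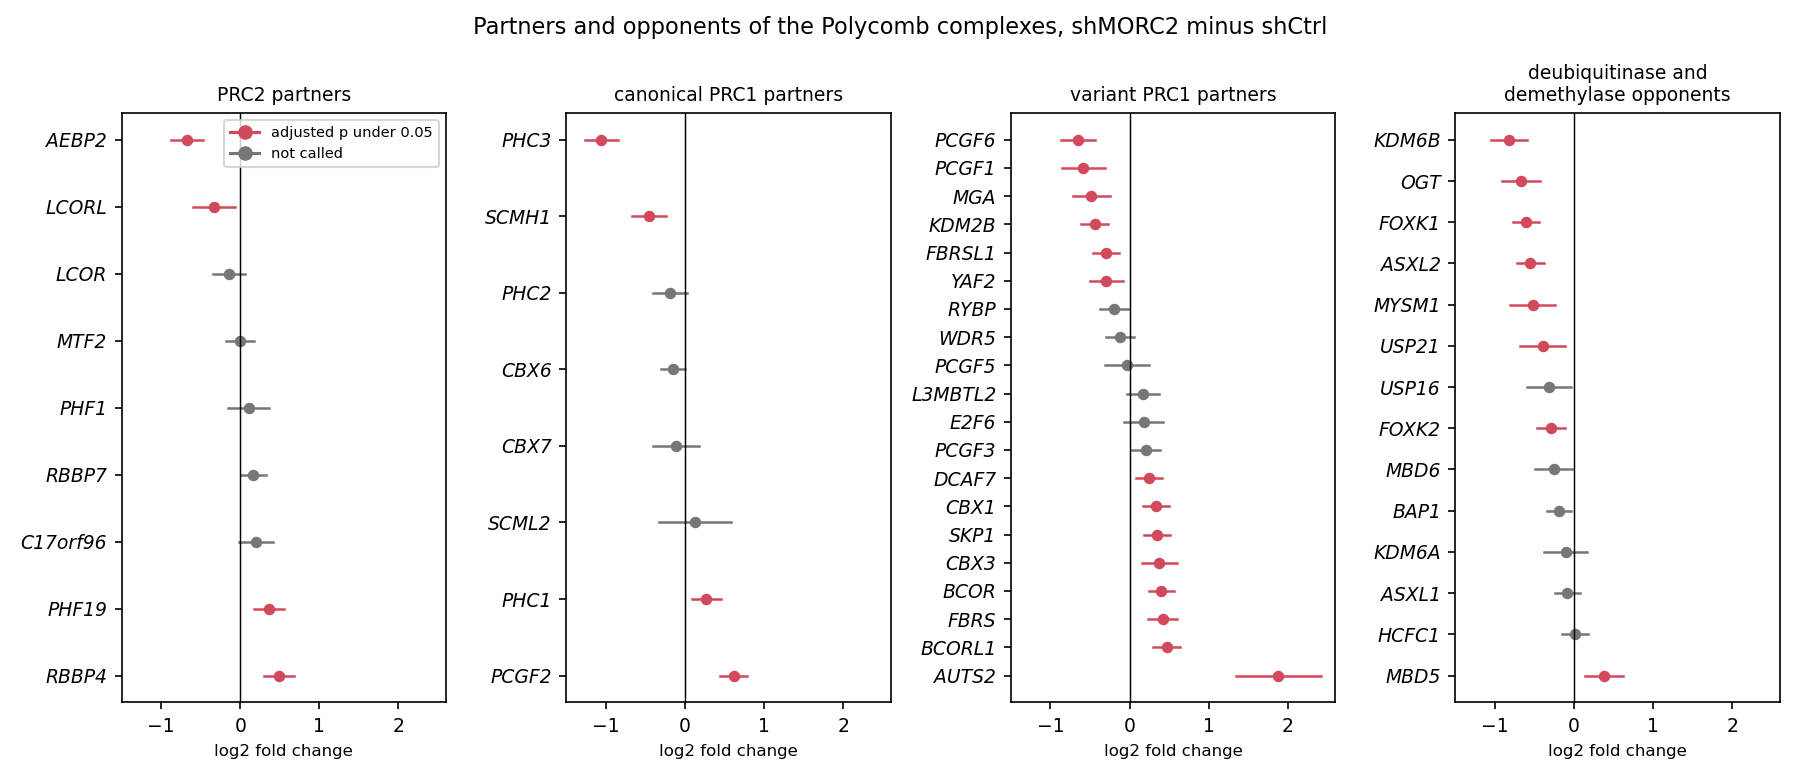
Log2 fold change (shMORC2 minus shCtrl) with its 95% interval for tested partner and opponent genes of the Polycomb complexes, in 4 lists and red where the edgeR adjusted p was under 0.05. Called genes lie on both sides of 0 in each list. Among 14 tested opponents MBD5 (0.38) was the 1 gene called higher and 7 were called lower, beside 19.9% and 19.6% of all genes.

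Of 20 variant PRC1 partners 8 rose and 6 fell (70.0% called). Over all genes 39.5% were called, and 47.1% of those that averaged 100 counts or more, and the difference was not tested. The highest by the naming rule were BCORL1 (log2 fold change 0.47, edgeR adjusted p 0.000503), FBRS (0.42, adjusted p 0.00203) and BCOR (0.40, adjusted p 0.000858). BCOR and BCORL1 belong to the PCGF1 form, and FBRS to the forms with PCGF3 or PCGF5. The lowest were PCGF6, PCGF1 and MGA (-0.48, adjusted p 0.00326), the DNA-binding partner of PCGF6. AUTS2, named after its values were seen, had the largest log2 fold change of the list (1.88, adjusted p 7.57e-05) from low counts of 26, 36 and 18 in shCtrl and 103, 99 and 96 in shMORC2.

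The last list held the enzymes that take off the Polycomb marks, with their partners. Of 14 tested 1 rose and 7 fell (57.1% called). Over all genes 19.9% were called higher and 19.6% lower, and the difference was not tested. KDM6B, a demethylase of H3 lysine 27, fell from 99.7 ± 14.5 to 56.5 ± 4.73 CPM (SD, n = 3 each, log2 fold change -0.82, edgeR adjusted p 5.85e-05), while its paralogue KDM6A had a log2 fold change of -0.11 (adjusted p 0.540). OGT (-0.68, adjusted p 0.000380) and FOXK1 (-0.61, adjusted p 5.76e-05), partners of the H2A deubiquitinase BAP1, fell, and BAP1 had a log2 fold change of -0.19 (adjusted p 0.0508, and 0.0138 with the block). MBD5, a BAP1 complex partner, rose (0.38, adjusted p 0.0167), a call that was lost without shCtrl replicate 2 (adjusted p 0.0551) or 3 (0.0708) or shMORC2 replicate 3 (0.0676).

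Textbook targets of the complexes were counted beside their subunits. Of 47 target genes 27 were tested and 10 called, 4 higher and 6 lower, with a median log2 fold change of -0.04. That share, 37.0%, lies close to the 39.5% called over all genes. PAX6, which encodes an eye and brain transcription factor, stood at 33.0 ± 5.50 CPM in shCtrl and fell to 13.8 ± 1.32 CPM (SD, n = 3 each, log2 fold change -1.25, edgeR adjusted p 5.96e-06). PAX8 (-0.55, adjusted p 0.000403, with 685 exonic bases shared with PAX8-AS1 on the opposite strand) and MEIS2 (-0.51, adjusted p 0.00267) fell, and BMP4 (0.36, adjusted p 0.00378) rose. CDKN2A, the cell cycle inhibitor locus that BMI1 is known to repress, stood at 167.5, 191.7 and 192.3 CPM in shCtrl and at 158.0, 177.4 and 185.8 CPM in shMORC2 (log2 fold change -0.08, adjusted p 0.475). CDKN2B had a log2 fold change of -0.21 (adjusted p 0.172, 0.00552 with the block and 0.00831 without shCtrl replicate 1). SORBS2, a cytoskeletal adaptor gene outside the lists, rose (0.44, adjusted p 0.00688), and limma on RPKM did not call it (adjusted p 0.106 with a pseudocount of 0.1 and 0.0971 with 1).

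HOX genes, the classical Polycomb targets, were mostly called higher where they were called. Of 39 genes 36 were tested, 18 rose and 1 fell, with a median log2 fold change of 0.36, where 19.9% of all genes were called higher and 19.6% lower. With the replicate block 21 were called higher and 3 lower, in a fit that called 49.0% of all genes either way. By cluster 6 of 11 HOXA, 4 of 9 HOXB, 2 of 9 HOXC and 6 of 7 HOXD genes rose. The 9 HOXD genes together were low, with 10.9 to 12.5 CPM in shCtrl and 19.99 to 21.9 CPM in shMORC2. HOXA7 rose from 12.7 ± 1.45 to 29.0 ± 2.83 CPM (SD, n = 3 each, log2 fold change 1.19, edgeR adjusted p 3.42e-06), with 62.5% of its exonic bases shared with HOXA-AS3 on the opposite strand. HOXD10 (1.33, adjusted p 0.000132) and HOXB13 (0.86, adjusted p 0.00207) rose, and HOXC13 fell (-0.58, adjusted p 0.00371). HOXD10 shares 452 of its 2692 exonic bases with HOXD11 on the same strand, so reads there could be split between these genes or counted in both.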

How the data were processed

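Raw read counts per gene were deposited by the authors for 6 libraries, with an RPKM table that equals count over exon length and library total. Per the submitters' processing notes, Trimmomatic 0.36, STAR 2.5.3a, Subread 1.5.1 with featureCounts, edgeR 3.12.1 and GRCh38 were used, on stranded mRNA libraries with molecular identifiers. Whether identifiers were collapsed, the strand setting and whether mates were counted apart are not given in the sources used here (67.1% of counts from 1 to 20 were even). The splicing table deposited by the authors holds rMATS junction counts and inclusion levels, which are fractions; its own p-values and differences were not used.

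For the counts, edgeR 4.0.16 (R 4.3.3) fitted a quasi-likelihood model with group only, after filterByExpr and TMM. The fit was also run on simulated data with few changed genes and unpaired libraries. That run does not test it where as many genes change as were called here. SE is the size of the log2 fold change over the square root of F. Alternatives were DESeq2 1.42.0, no TMM, a mean of at least 10 counts, no filter beyond 1 count, the replicate block, limma 3.58.1 on log2(RPKM + 1) and log2(RPKM + 0.1) where mean RPKM was at least 1, each library left out, an adjusted p under 0.01 and a log2 fold change of at least 0.5. Same-numbered libraries deviated together (correlations 0.333, 0.165 and 0.149). On these values alone the replicate block takes the numbers as pairs, while the main fit and its calls do not. No 2 libraries of a group agreed within counting error (chi-square per degree of freedom 6.35 to 21.5).

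The members and lists were chosen with earlier results of these data known. Named genes were MORC2, the members, their paralogues in the PCGF, CBX and PHC families, BAP1, KDM6A, KDM6B, CDKN2A, CDKN2B, SORBS2 and, per list, up to 3 highest and 3 lowest called genes that averaged 100 counts or more. Some genes that this rule names are not reported here, and are left out of the text and figures but counted in their lists. Overlaps of exons came from the deposited gene models and are not given for every named gene.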

Additional observations from a re-analysis of the deposited data

How the results depend on the processing

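Of the 10 Polycomb complex genes 2 were called by edgeR, and also by DESeq2, without TMM, under both other filters, by limma on RPKM at both pseudocounts and with BMI1 summed with COMMD3-BMI1. With the replicate block, which treats same-numbered libraries as pairs, 3 were called. Leaving out single libraries gave 1 to 2, with 1 without shCtrl replicate 2 or 3 or shMORC2 replicate 2 or 3, where EED was lost. At an adjusted p under 0.01 there was 1 (25.2% of all genes), and at a log2 fold change of at least 0.5 there was 0 (22.4% of all genes), where 2 had an unadjusted p under 0.05. Partner genes called went from 31 of 52 tested to 11 of 52 at that fold limit, close to the 22.4% of all genes called there. Target genes called went from 10 of 27 tested to 5 under limma on log2(RPKM + 0.1) and on log2(RPKM + 1). Those fits took in only genes averaging 1 RPKM or more and called 42.0% and 42.3% of them. How many target genes they took in was not counted. Signs turned with single libraries left out for the RNF2 to RING1 log2 ratio (-0.16 to 0.14), and for the log2 fold changes of SUZ12 (-0.14 to 0.13), CBX2 (-0.087 to 0.023), CBX8 (-0.024 to 0.20), PCGF5 (-0.10 to 0.071) and KDM6A (-0.22 to 0.019), none of which was called, and the cause was not tested. The MORC2 call was kept in all 13 alternative fits. Of 48 named genes 22 kept their direction and side of the threshold in all settings. Of 711 values 651 did, 40 lost the call, 12 gained it and 8 changed sign. The settings of an adjusted p under 0.01 and a log2 fold change of at least 0.5 reuse the main fit. Under them no sign can turn and no call can be gained, so the values of uncalled genes there were the same in advance. Beside those given in the report, the block changed the call of no other named gene. RNF2, the member with the fewest counts, had 304 to 420 in a library.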
